A study of Flaveria ramosissima and Flaveria robusta and Flaveria sonorensis with 9 samples.

Results

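In leaves of 4 Flaveria species, 160 of 29558 gene IDs had higher transcript abundance in both C3-C4 intermediate species than in the C3 and the C4 species at control CO2. They were chosen from the median TPM (the abundance of a transcript scaled to gene length and to the total of its library) of the 3 control libraries of each species. The medians of F. sonorensis and F. ramosissima had to be at least 10 TPM each, and each at least 2 times the larger of the F. robusta and F. trinervia medians. The last 2 species had to reach at least 0.5 TPM each, so that every chosen gene was detected in all 4 species. The difference between species at control CO2 is therefore how the genes were chosen and is given only as a description.

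Of the intermediates, F. sonorensis is of Type I and F. ramosissima of Type II, while F. robusta is the C3 and F. trinervia the C4 species. Mature, newly expanded leaves were taken from plants held for 4 weeks at low CO2 (written as 100 in the labels) and from plants at control CO2 (written as 380), in growth chambers. The labels give both levels in the unit of light intensity. No genotype, transgene or other agent is named for any group. Each species had 1 sample at each CO2 level with 3 numbered libraries, which gives 24 libraries, and nothing states that the libraries came from separate plants. All p-values below therefore measure the spread between libraries, which may be technical, and each photosynthetic type is represented by 1 species.

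C3 plants fix CO2 with Rubisco in the mesophyll, and lose part of it when Rubisco fixes oxygen and the product is recycled by photorespiration. In C3-C4 intermediates the glycine made in this pathway is decarboxylated mainly in the bundle sheath, so that the released CO2 can be fixed again there. Type I species are known for this glycine shuttle, and Type II species have in addition a partial C4 cycle. C4 plants concentrate CO2 in the bundle sheath with the full cycle and have little photorespiration.

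The gene IDs are numbers without names (0 of 29566 rows held a gene name). No function can be given to any of the 160 genes, 0 members of lists of photorespiratory, C4 cycle and Calvin-Benson genes could be matched, and the leaf identity of the samples was not checked by markers. Depth is not kept by TPM and is unknown. Between 85.9% and 92.6% of the full TPM scale of a library lay on the listed rows, and the 6 F. sonorensis libraries were the lowest (at most 87.02%). One library stood apart. F. ramosissima control library 3 reached 1 TPM in 12813 genes, whereas control libraries 1 and 2 did so in 16564 and 15875. Between the 3 libraries of a sample, the 160 genes varied by a median coefficient of 39.9% in the F. ramosissima control and of 10.02% to 19.0% in the other 7 samples. Without that library the rule gave 187 genes, 147 of them among the 160.

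The 160 genes were of moderate to high abundance in the intermediates. In the control libraries that chose them, the middle gene had 40.9 TPM in F. sonorensis and 42.4 TPM in F. ramosissima, against 8.72 TPM in F. robusta and 9.47 TPM in F. trinervia. The highest medians were 876 TPM in F. sonorensis and 1868 TPM in F. ramosissima, against 217 TPM in F. robusta and 263 TPM in F. trinervia. Leaves were measured as bulk tissue, in which fewer cells of a type and less RNA per cell cannot be told apart. At least 100 TPM was reached by 32 of the genes in F. sonorensis and 29 in F. ramosissima, against 5 in F. robusta and 4 in F. trinervia. The order within each pair was mixed, as F. ramosissima was above F. sonorensis in 75 genes and F. trinervia above F. robusta in 91. F. ramosissima exceeded F. sonorensis by at least 2 times in 19 genes and was exceeded in 16, while F. trinervia exceeded F. robusta by at least 2 times in 26 and was exceeded in 21.

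For most of the genes the ratio of the lower intermediate median to the higher of the F. robusta and F. trinervia medians was modest. Its middle value was 2.56, and 106 of the 160 genes lay under 3, while 17 reached 5 and 7 reached 10. The gene just inside the threshold had medians of 47.5 TPM in F. sonorensis and 62.5 TPM in F. ramosissima, against 4.40 TPM in F. robusta and 23.6 TPM in F. trinervia. The gene just outside it had 187.7 TPM in F. sonorensis and 121 TPM in F. ramosissima, against 35.2 TPM in F. robusta and 60.5 TPM in F. trinervia. At the limit of 10 TPM the lower intermediate medians were 10.07 TPM inside and 9.83 TPM outside, and at the limit of 0.5 TPM the lower of the other medians were 0.53 TPM inside and 0.48 TPM outside. In 115 of the 160 genes every control library of both intermediates lay above all 6 control libraries of the other species. This again describes the choice, and the count was not made over all genes. The scale of the libraries also entered the choice. Only 52 of the 160 met the rule after median-ratio scaling, 77 after quantile normalization, and 46 under both scalings as well as on the deposited values.

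**Figure D1:**
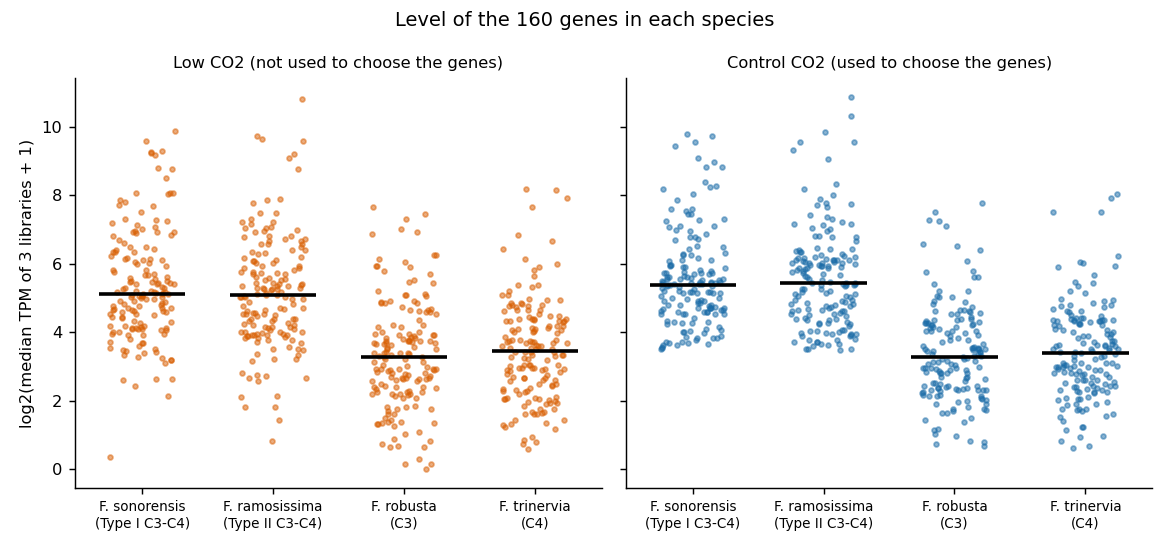
Level of each of the 160 genes, as log2 of the median TPM of 3 libraries plus 1, in the 4 species at low CO2 (left) and control CO2 (right). Each point is a gene and each bar the median over the genes. The bars of both C3-C4 species lie above those of F. robusta and F. trinervia at both CO2 levels, and only the control panel was used to choose the genes.

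The low CO2 libraries took no part in the choice, so they were used to ask whether the pattern was also present there. It was present for most of the genes. At low CO2 the middle gene had 33.8 TPM in F. sonorensis and 32.8 TPM in F. ramosissima, against 8.66 TPM in F. robusta and 10.04 TPM in F. trinervia. The genes made up between 1.5% and 1.64% of the summed TPM in the low CO2 libraries of F. sonorensis and between 1.39% and 1.61% in those of F. ramosissima, against between 0.302% and 0.343% in F. robusta and between 0.351% and 0.419% in F. trinervia. The 6 libraries of the intermediates did not overlap with the 6 others in this share.

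**Figure D2:**
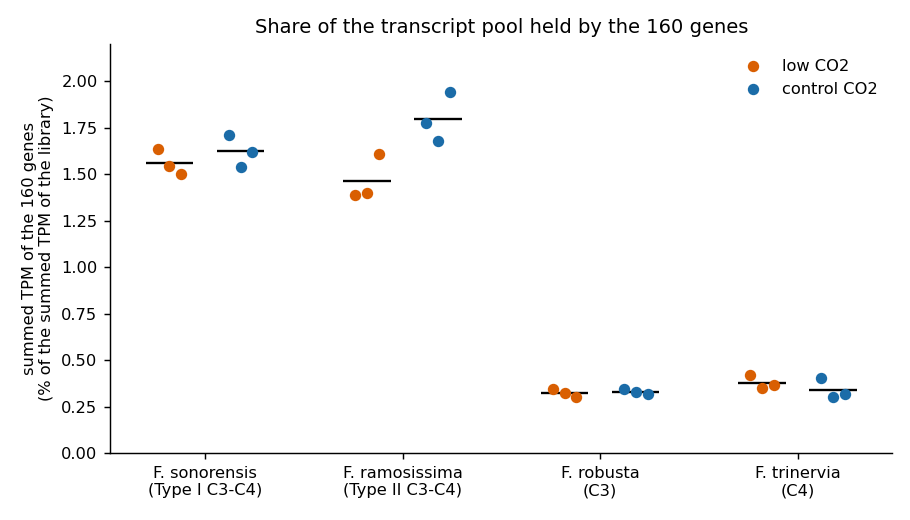
Summed TPM of the 160 genes as a percentage of the summed TPM of the library, for each library (points) with the mean of 3 libraries (bars), at low CO2 (orange) and control CO2 (blue). All 12 libraries of the C3-C4 species lie at or above 1.39%, and all 12 libraries of F. robusta and F. trinervia at or below 0.419%.

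Gene by gene, 4 contrasts were tested in the 12 low CO2 libraries, each intermediate against F. robusta and against F. trinervia. A gene passed when all 4 were above 0 with a Benjamini-Hochberg adjusted p below 0.05 in limma, on log2(TPM + 1). All 160 genes were abundant enough to be tested, and 114 passed, where 6.31% of the 17414 genes tested did. Among the 3356 other genes that met the TPM minimums of the rule but not its ratio, 7.54% passed. These 3356 were kept off the list by their control ratio, which itself favours low shares at low CO2. In 118 of the 160 genes all 6 low CO2 libraries of the intermediates lay above all 6 of the other species, against 6.51% of the 17414 genes and 7.81% of the 3356. By sign alone, 143 genes had 4 contrasts above 0, against 11.2% of the genes tested. With only genes averaging at least 1 TPM in each species, 114 again passed, where 5.55% of 8632 genes did. Of the 160, 156 reached that minimum in F. robusta and 158 in F. trinervia, so not all 160 were tested there. The 3 libraries of a sample are not known to be separate plants, so these tests compare the libraries. Each species was aligned to its own genome at both CO2 levels, and a difference in abundance cannot be told apart here from a difference in how the copies of a gene were placed on common rows.

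Taken singly, the contrast of F. sonorensis with F. robusta was higher in 147 of the 160 genes (all genes tested: 50.3%) and that with F. trinervia in 139 (44.7%). F. ramosissima was higher than F. robusta in 141 (33.1%) and than F. trinervia in 139 (29.2%). The excess was thus frequent in each contrast, although single contrasts passed in many other genes as well. In any of the 4 contrasts 2 of the 160 genes were called lower. Of all genes tested, 19.6% to 48.5% were called lower in a single contrast, and the share in any of the 4 was not counted. The genes were chosen as higher at control CO2, which itself favours few lower calls.

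The size of the excess was read against the shift of all genes. The middle gene of the 160 was higher by 1.74 (log2) in F. sonorensis than in F. robusta, where the median of all genes tested was 0.47, and by 1.77 in F. sonorensis than in F. trinervia, where it was 0.26. In F. ramosissima it was higher by 1.64 than in F. robusta and by 1.497 than in F. trinervia, where the medians of all genes were -0.22 and -0.42. Median-ratio scaling changed these shifts of all genes by more than 0.1 in each contrast. After median-ratio scaling the medians of all genes became 0 against both species for F. sonorensis and 0.35 and 0.31 for F. ramosissima, and those of the 160 genes 0.94 and 1.16 for F. sonorensis and 2.39 and 2.42 for F. ramosissima. After quantile normalization the medians of all genes were 0.03 and 0.03 for F. sonorensis and -0.44 and -0.44 for F. ramosissima, and those of the 160 genes 1.16 and 1.399 for F. sonorensis and 1.48 and 1.54 for F. ramosissima. The medians of the 160 genes thus stayed above those of all genes under each scaling. The number of the 160 that passed was 84 after median-ratio scaling, where 6.58% of all genes passed, and 97 after quantile normalization, where 4.80% passed. Leaving out any 1 of the 12 libraries gave between 111 and 117.

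The genes that passed were spread over the whole range of control ratios. Of the 106 genes with a control ratio of 2 to under 3, 72 passed at low CO2. Of the 37 with a ratio of 3 to under 5, 29 passed, and of the 17 with a ratio of at least 5, 13 passed. The lowest of the 4 contrasts had a median of 0.75 (log2) in the first of these groups, 1.42 in the second and 1.90 in the third. Among the 46 genes that did not pass, 18 were called higher in F. sonorensis against both other species, 13 were called higher in F. ramosissima against both, and the rest in neither pair of contrasts. In none of the 4 was 1 gene called higher, a count that was not made over all genes.

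**Figure D3:**
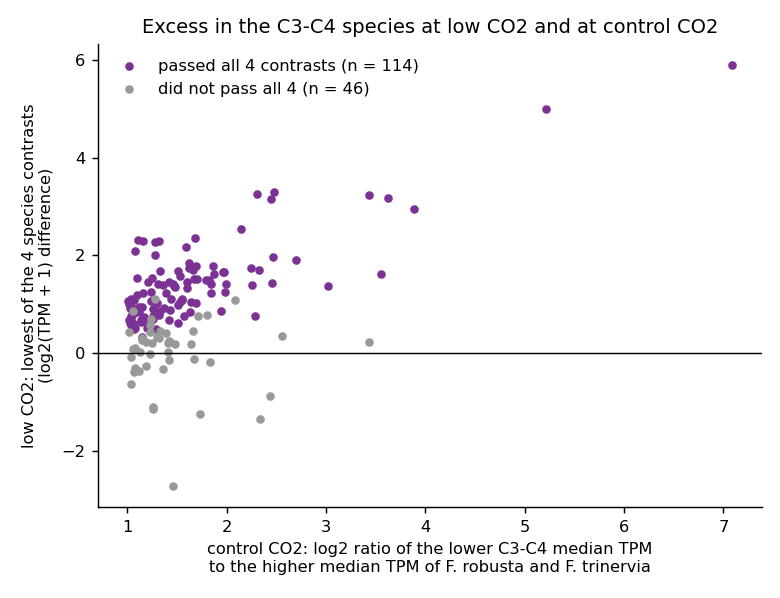
Excess of the 160 genes in the C3-C4 species at low CO2 (vertical axis, the lowest of the 4 species contrasts in log2(TPM + 1)) against the excess at control CO2 that chose them (horizontal axis, log2 of the ratio of medians). Purple points are the 114 genes that passed all 4 contrasts at low CO2 and grey points the 46 that did not, and 17 of the grey points have a lowest contrast at or below 0.

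The same thresholds as at control CO2 were also applied to the low CO2 medians, without a test. They were met by 141 genes, of which 75 were among the 160 (46.9% of the control list and 53.2% of the low CO2 list). Of the 85 genes that no longer met them, 36 missed the ratio in F. ramosissima alone, 19 in F. sonorensis alone and 26 in both. A level under 10 TPM was found in 15 of the 85 in F. sonorensis and in 17 in F. ramosissima. Both intermediate medians were still above those of F. robusta and F. trinervia in 137 of the 160 genes, a count that was not made over all genes.

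The most abundant genes in the intermediates, by the mean of their log2 control medians, were Gene07742 and Gene04134. At low CO2 Gene07742 had 501, 712 and 599 TPM in F. sonorensis and 1798, 2204 and 1769 TPM in F. ramosissima, against 212, 174 and 165 TPM in F. robusta and 264, 291 and 305 TPM in F. trinervia. At control CO2 it had 682, 753 and 692 TPM in F. sonorensis and 1470, 1868 and 4752 TPM in F. ramosissima, against 137, 117 and 144 TPM in F. robusta and 211, 239 and 259 TPM in F. trinervia. The 2 intermediates themselves did not overlap, with F. ramosissima the higher in every library, and the value of 4752 TPM belongs to the library that stood apart. At low CO2 its excess was smallest in F. sonorensis against F. trinervia (1.06, SE 0.15, limma adjusted p = 5.18e-05), and this call was lost after median-ratio scaling (0.42, adjusted p = 0.0679).

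Gene04134 and Gene00559 had the largest excess at low CO2, as measured by the lowest of the 4 contrasts. Gene04134 had 575, 720 and 474 TPM in F. sonorensis and 749, 883 and 806 TPM in F. ramosissima, against 10.3, 8.99 and 7.43 TPM in F. robusta and 1.43, 0.90 and 0 TPM in F. trinervia. Its control values were 746, 782 and 721 TPM in F. sonorensis and 729, 922 and 1542 TPM in F. ramosissima, against 5.48, 5.03 and 6.68 TPM in F. robusta and 5.12, 5.99 and 5.07 TPM in F. trinervia. This gene was thus among the abundant transcripts of both intermediates and at or below 10.3 TPM in every library of F. robusta and F. trinervia. Its lowest contrast at low CO2 was 5.89 (log2, SE 0.28, limma adjusted p = 2.74e-09), in F. sonorensis against F. robusta. Gene00559 had 947, 967 and 751 TPM at low CO2 in F. sonorensis and 850, 971 and 723 TPM in F. ramosissima, against 6.51, 6.09 and 5.40 TPM in F. robusta and 29.3, 23.1 and 24.2 TPM in F. trinervia. Its lowest contrast was 4.996 (SE 0.15, limma adjusted p = 2.63e-11), in F. ramosissima against F. trinervia. At low CO2 F. ramosissima lay above F. sonorensis in every library of Gene04134, while they overlapped in Gene00559, and the excess of both genes was many times its SE.

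Gene15352 and Gene33297 had the smallest excess at low CO2. Gene15352 had 22.9, 15.4 and 26.7 TPM at low CO2 in F. sonorensis, against 171, 175 and 189 TPM at control CO2. In F. ramosissima it had 93.4, 59.1 and 151 TPM at low CO2, against 240, 64.5 and 237 TPM at control CO2. In F. robusta it had 0.14, 0 and 0 TPM at low CO2, against 8.23, 7.70 and 8.46 TPM at control CO2. F. trinervia differed between its libraries, with 457, 57.4 and 113 TPM at low CO2, against 271, 20.03 and 63.7 TPM at control CO2. Library 1 was the highest of the 3 at both CO2 levels, and over the 160 genes library 1 of F. trinervia exceeded both others by more than 2 times in 9 genes at low CO2, in 16 at control CO2 and in 5 at both. At low CO2 Gene15352 was lower in F. sonorensis than in F. trinervia by 2.71 (limma log2 difference -2.71, SE 0.60, adjusted p = 0.00161), while it remained higher than in F. robusta in both intermediates (4.41 and 6.51, limma adjusted p = 3.53e-05 and 9.89e-07).

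Gene33297 was spread widely in F. ramosissima, with 1.35, 1.73 and 13.5 TPM at low CO2, against 29.2, 13.9 and 0.01 TPM at control CO2. In F. sonorensis it had 38.3, 15.0 and 40.7 TPM at low CO2, against 61.0, 48.3 and 82.8 TPM at control CO2. It had 13.4, 8.45 and 9.80 TPM in F. robusta at low CO2, against 9.14, 2.74 and 2.04 TPM at control CO2, and stayed at or below 3.07 TPM in F. trinervia. Its lowest contrast, F. ramosissima against F. robusta at low CO2, was -1.33 (SE 0.60, limma adjusted p = 0.0625). This contrast was -2.17 without F. ramosissima low CO2 library 3 (adjusted p = 0.000602) and -0.86 without F. ramosissima low CO2 library 1.

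The next question was how the 160 genes changed at low CO2 in each species. Control libraries enter both the choice and this change, so the choice by itself favours falls in the intermediates and rises in F. robusta and F. trinervia, and the counts are a description. In F. sonorensis limma called 20 of the 160 genes higher at low CO2 (all genes tested: 9.95%) and 33 lower (15.6%). The median change was -0.11 (log2), against -0.08 over all 14578 genes tested. The rises lay between 0.37 and 1.299 and the falls between 0.37 and 3.35 on the log2 scale. After median-ratio scaling 33 of the 160 genes were higher (all genes tested: 17.2%) and 30 lower (12.4%). Quantile normalization gave 26 higher genes (13.7%) and 33 lower ones (13%). The balance of the directions thus moved with the scale in the 160 genes and in all genes. Leaving out 1 library reduced the 20 higher genes to 13 (low CO2 library 1), 11 (control library 2) or 10 (control library 3).

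In F. ramosissima limma called 0 of the 160 genes higher (all genes tested: 0.0256%) and 0 lower (0%). At an unadjusted p below 0.05 there were 21 of the 160 genes and 1735 of all 15638 genes tested, and 1 gene was called lower with array weights or without control library 3. The median residual SD was 0.44 in this species and between 0.20 and 0.21 in the others, so the absence of calls is no sign that the genes were stable there. The median change was -0.13, against -0.03 over all genes. Of the 33 genes called lower in F. sonorensis, 31 had an estimate below 0 in F. ramosissima, and of the 20 called higher, 15 had one above 0. Over the 160 genes, 64 had an estimate above 0 in F. ramosissima, and over all genes tested 7430 did. The matching counts among all genes called in F. sonorensis were not made, and the choice favours falls in both species. The largest estimates in F. ramosissima were -3.18 and 2.16 (log2). The gene with the estimate above 0 was Gene11150, named after its values were seen. In F. ramosissima it had 74.0, 45.3 and 33.5 TPM at low CO2, against 22.5, 19.6 and 1.75 TPM at control CO2. The lowest value was again in control library 3 (limma adjusted p = 0.399). Gene11150 was called higher in F. trinervia (1.94, limma adjusted p = 0.00171). It was not called in F. sonorensis (0.58, adjusted p = 0.138) or F. robusta (0.61, adjusted p = 0.457).

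In F. robusta 156 of the 160 genes were tested, and limma called 31 higher (all genes tested: 12.5%) and 35 lower (18.9%). The higher genes numbered 20 without low CO2 library 2. In F. trinervia 158 were tested, and limma called 15 higher (9.28%) and 10 lower (10.9%). These counts fell to between 5 and 9 higher genes when any 1 library other than control library 1 was left out, and to 4 lower genes without low CO2 library 3. The median changes were -0.03 in F. robusta and 0.05 in F. trinervia, against -0.05 and 0.01 over all genes. By sign alone, 26 of the 160 genes had estimates below 0 and 25 had estimates above 0 in all 4 species. Estimates below 0 in both intermediates and above 0 in both other species were found in 7 genes, and the reverse in 4. The choice by control libraries favours the first of these 2 patterns. These sign counts were not made over all genes, so they only describe the 160.

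**Figure D4:**
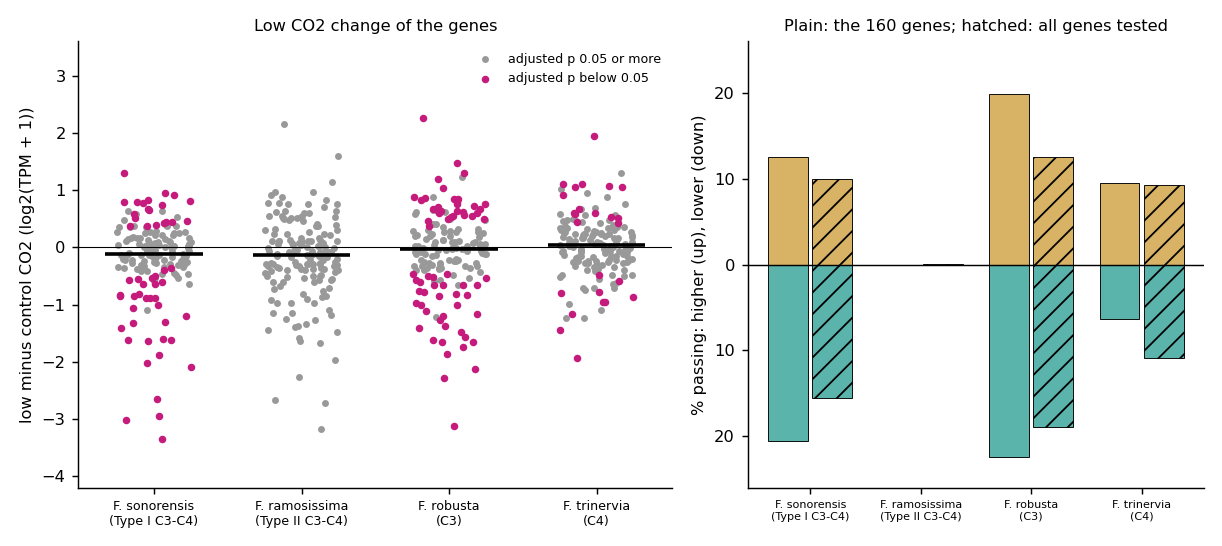
Left, change of each of the 160 genes (low minus control CO2, log2(TPM + 1)) by species, with genes at an adjusted p below 0.05 in pink and the median as a bar. Right, percentage of genes called higher (above 0) and lower (below 0), for the 160 genes (plain bars) and all genes tested (hatched bars), where F. sonorensis has 12.5% and 20.6% against 9.95% and 15.6%, and F. ramosissima almost no calls.

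The low CO2 change in F. sonorensis was set beside the excess at low CO2. Of the 33 genes lower at low CO2 in F. sonorensis, 12 were among the 114 that passed all 4 contrasts at low CO2 and 21 among the 46 that did not. Of the 20 genes higher at low CO2, 18 were among the 114 and 2 among the 46. The same low CO2 libraries enter both counts, so they are linked by construction.

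Gene17920 and Gene00289 had the largest mean of the changes in both intermediates, among the genes called higher in F. sonorensis with an estimate of the same sign in F. ramosissima. Gene17920 had 76.8, 87.6 and 82.7 TPM at low CO2 in F. sonorensis, against 41.3, 41.0 and 44.7 TPM at control CO2. In F. ramosissima it had 98.0, 82.9 and 74.8 TPM, against 58.0, 51.7 and 55.7 TPM. In F. robusta it had 39.3, 35.9 and 32.1 TPM, against 17.1, 18.3 and 23.6 TPM, and in F. trinervia 31.4, 22.9 and 26.9 TPM, against 19.4, 16.2 and 19.3 TPM. All low CO2 libraries lay above all control libraries in each of the 4 species, so low CO2 values were higher at both ends of the series as well. The change was 0.94 in F. sonorensis (SE 0.11, limma adjusted p = 0.000907), 0.61 in F. ramosissima (SE 0.25, adjusted p = 0.427), 0.84 in F. robusta (SE 0.15, adjusted p = 0.00492) and 0.53 in F. trinervia (SE 0.15, adjusted p = 0.0449). The last call was lost in 7 of 15 alternatives, among them on leaving out any 1 F. trinervia library except low CO2 library 2.

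Gene00289 had 117, 119 and 149.9 TPM at low CO2 in F. sonorensis, against 81.3, 34.6 and 48.0 TPM at control CO2 (change 1.299, SE 0.27, limma adjusted p = 0.0105). Its libraries overlapped between the CO2 levels in F. ramosissima, with 37.7, 23.2 and 43.8 TPM at low CO2, against 34.1, 23.1 and 29.1 TPM at control CO2 (change 0.24, SE 0.33, adjusted p = 0.881). The test of the difference between these changes did not pass (-1.06, limma adjusted p = 0.116), although it did without F. sonorensis control library 1 (-1.38, adjusted p = 0.0257). In F. robusta it had 17.1, 15.0 and 14.3 TPM, against 10.4, 14.01 and 13.9 TPM, and in F. trinervia 3.03, 2.34 and 2.39 TPM, against 5.01, 2.82 and 4.37 TPM.

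Gene13010 and Gene27789 had the lowest mean of the changes in both intermediates, among the genes called lower in F. sonorensis with an estimate of the same sign in F. ramosissima. Gene13010 had 1.34, 0.16 and 0.28 TPM at low CO2 in F. sonorensis, against 18.7, 13.2 and 12.2 TPM at control CO2 (change -3.35, SE 0.29, limma adjusted p = 0.0003). In F. ramosissima it had 2.7, 2.54 and 0.78 TPM, against 22.4, 8.84 and 24.5 TPM (change -2.66, SE 0.48, adjusted p = 0.201). In F. robusta it had 0.32, 0.10 and 0.07 TPM, against 5.49, 3.22 and 5.60 TPM (change -2.29, SE 0.22, adjusted p = 0.000344). These 3 species had no overlap between the CO2 levels, while in F. trinervia the libraries overlapped, with 6.73, 0.51 and 2.18 TPM at low CO2, against 14.5, 2.38 and 2.12 TPM at control CO2. As with Gene15352, library 1 of F. trinervia was the highest at both levels. At low CO2 Gene13010 passed 1 of the 4 contrasts, F. ramosissima against F. robusta (1.303, SE 0.50, limma adjusted p = 0.0339), and F. sonorensis against F. trinervia was at -1.14 (adjusted p = 0.0657). That last difference passed without F. sonorensis low CO2 library 1 (-1.45, adjusted p = 0.0395) and without F. trinervia low CO2 library 2 (-1.71, adjusted p = 0.00538).

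Gene27789 had 35.4, 25.9 and 17.2 TPM at low CO2 in F. sonorensis, against 132, 85.1 and 102 TPM at control CO2 (change -2.02, SE 0.25, limma adjusted p = 0.00135). In F. ramosissima it had 12.7, 11.7 and 50.8 TPM, against 62.4, 236 and 65.4 TPM (change -2.27, SE 0.71, adjusted p = 0.34). It fell in F. robusta, to 8.20, 12.4 and 9.54 TPM at low CO2 against 33.9, 25.7 and 24.7 TPM at control CO2 (change -1.40, limma adjusted p = 0.00123), and in F. trinervia, to 10.5, 12.1 and 12.7 TPM against 27.6, 14.5 and 33.3 TPM (change -0.96, adjusted p = 0.0486). The F. trinervia call was lost in 8 of 15 alternatives, among them on leaving out any 1 F. trinervia library except control library 2. Low CO2 libraries lay below control libraries in all 4 species.

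**Figure D5:**
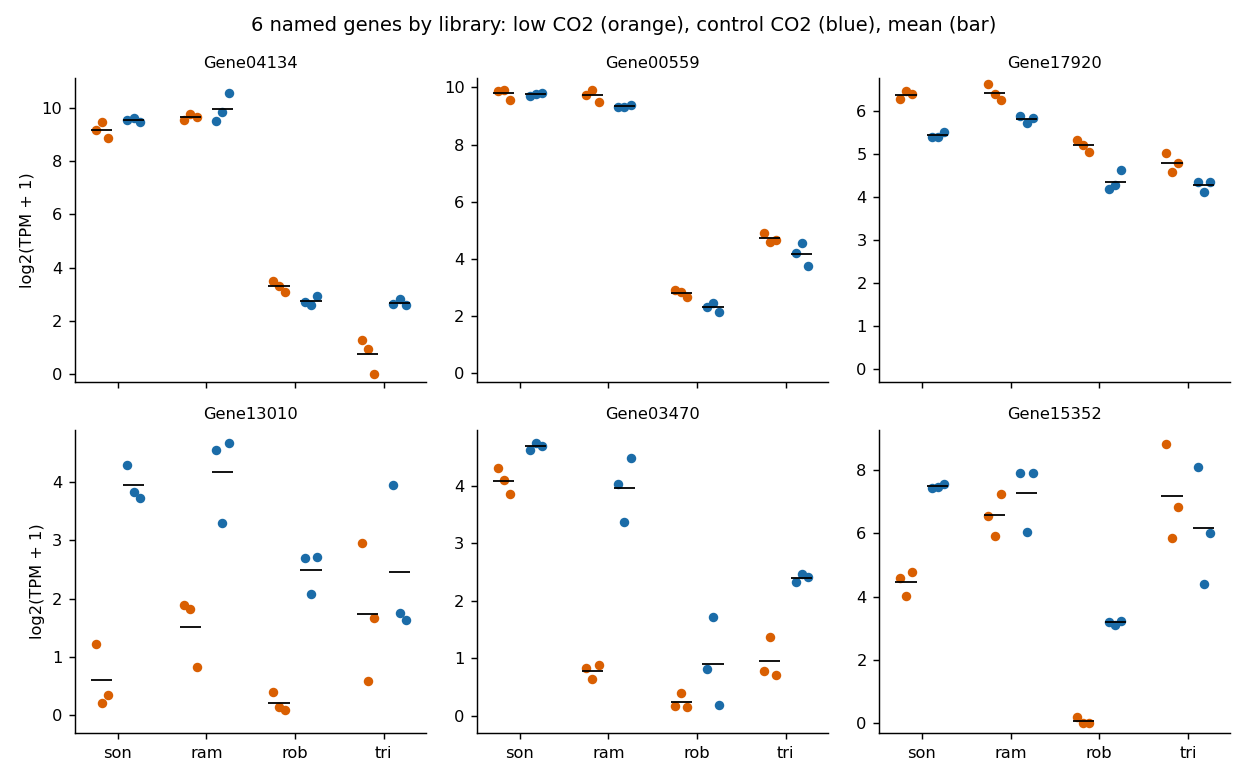
log2(TPM + 1) of 6 of the named genes in each library (points) with the mean of 3 libraries (bars), at low CO2 (orange) and control CO2 (blue), in F. sonorensis (son), F. ramosissima (ram), F. robusta (rob) and F. trinervia (tri). Gene04134 and Gene00559 stay high in both intermediates at both CO2 levels, whereas Gene13010 falls in F. sonorensis, and Gene03470 falls further in F. ramosissima than in F. sonorensis.

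The low CO2 change was then compared between the 2 intermediates in one limma model of all 24 libraries, as the change of F. ramosissima minus that of F. sonorensis. It was higher in F. ramosissima in 1 of the 160 genes (all genes tested: 2.68%) and lower in 3 (2.41%). The lower ones were Gene03470, Gene08103 and Gene03160 and the higher one Gene29781, of which Gene03160 and Gene29781 are named because their number was small, after their values were seen. Gene03470 had 0.78, 0.55 and 0.84 TPM at low CO2 in F. ramosissima, against 15.3, 9.32 and 21.5 TPM at control CO2. In F. sonorensis it had 18.8, 16.2 and 13.5 TPM, against 23.6, 25.95 and 25.03 TPM. It was thus under 1 TPM at low CO2 in every F. ramosissima library and between 13.5 and 18.8 TPM in the F. sonorensis libraries. The difference of the changes was -2.58 (SE 0.42, limma adjusted p = 0.000959). Within species, limma called the fall in F. sonorensis (-0.60, adjusted p = 0.0167) but not in F. ramosissima (-3.18, adjusted p = 0.0707). A fall was also called in F. trinervia, to 0.72, 1.60 and 0.64 TPM from 3.99, 4.55 and 4.30 TPM (-1.44, adjusted p = 0.00427). F. robusta had 0.12, 0.32 and 0.11 TPM at low CO2, against 0.75, 2.30 and 0.14 TPM. A fall was thus not particular to F. ramosissima.

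Gene08103 moved in opposite directions by its means. It had 16.8, 16.8 and 15.9 TPM at low CO2 in F. ramosissima, against 23.8, 24.4 and 15.5 TPM at control CO2, which overlap. In F. sonorensis it had 61.0, 65.8 and 85.2 TPM, against 36.6, 38.4 and 42.4 TPM, which do not (change 0.82, SE 0.15, limma adjusted p = 0.00508). The difference of the changes was -1.14 (SE 0.26, adjusted p = 0.0134). For Gene03160 it was -1.28 (SE 0.33, adjusted p = 0.0279) and for Gene29781 0.82 (SE 0.23, adjusted p = 0.0434). Of 33 alternatives, 9 lost the call of Gene03160 and 23 that of Gene29781, and none that of Gene08103. The number of lower genes rested on single F. ramosissima libraries. It was 11 without control library 3, 8 without control library 2, 5 without control library 1 and 6 without low CO2 library 3. The 1 higher gene was lost on leaving out most single libraries.

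The mean change of both intermediates was also set against the mean change of F. robusta and F. trinervia. It was higher in 2 of the 160 genes (all genes tested: 2.25%) and lower in 4 (1.98%), which is close to the share of all genes. The medians of the difference were -0.14 over the 160 genes and -0.02 over all genes. The choice by control libraries favours values below 0 here. The 2 higher genes were Gene05218 and Gene21386, named with the next 4 after their values were seen. Gene05218 had 113, 108 and 131 TPM at low CO2 in F. sonorensis, against 108, 122 and 116 TPM at control CO2, and in F. ramosissima 91.4, 104 and 109 TPM, against 131, 135 and 89.0 TPM. In F. robusta it had 14.1, 15.1 and 13.1 TPM, against 27.3, 23.6 and 24.1 TPM, and in F. trinervia 35.6, 35.2 and 37.5 TPM, against 50.3, 53.2 and 48.9 TPM. The CO2 levels overlapped in both intermediates and not in the other species, which fell. The difference was 0.54 (SE 0.14, limma adjusted p = 0.0327).

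Gene21386 had a difference of 1.06 (SE 0.28, limma adjusted p = 0.0367). It had 485, 267 and 239 TPM at low CO2 in F. sonorensis and 235, 146 and 269 TPM in F. ramosissima, against 2.27, 1.20 and 1.70 TPM in F. robusta and 19.8, 21.5 and 20.6 TPM in F. trinervia, so that its excess in the intermediates was also among the larger ones. The differences below 0 were those of Gene03774 (-1.304, limma adjusted p = 0.0194), Gene00067 (-1.07, adjusted p = 0.014), Gene15853 (-0.88, adjusted p = 0.017) and Gene18533 (-0.42, adjusted p = 0.0391). Of 33 alternatives, 16 lost the call of Gene21386, 16 that of Gene18533, 12 that of Gene05218 and 1 that of Gene03774, and none that of Gene00067 or Gene15853. Gene03774 rose in F. robusta, with 27.7, 28.6 and 17.5 TPM at low CO2, against 4.71, 2.73 and 5.60 TPM at control CO2 (change 2.27, limma adjusted p = 0.000681). It also rose in F. trinervia, with 3.15, 2.59 and 3.62 TPM at low CO2, against 1.96, 0.43 and 0.61 TPM at control CO2 (change 1.11, limma adjusted p = 0.034). These control values lie near the minimum of 0.5 TPM, and the difference was not called with a pseudocount of 5 (limma adjusted p = 0.0737). Its estimates in the intermediates were also above 0, with 0.64 in F. sonorensis (limma adjusted p = 0.0739) and 0.13 in F. ramosissima (adjusted p = 0.941). Leaving out a control library of F. ramosissima gave 4 higher and 10 lower genes (library 3), 5 and 11 (library 2) or 5 and 6 (library 1), and 7 genes were lower without F. trinervia control library 1. The higher genes numbered 0 without F. robusta low CO2 library 3 or control library 1, F. sonorensis control library 3, or F. trinervia low CO2 library 2 or 3, and 1 without most other libraries.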

How the data were processed

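Per the labels and the study's methods, leaf mRNA was sequenced in paired-end mode, and the authors aligned reads to the genome of each species with STAR and estimated abundance with RSEM. The deposited values are TPM. No source used here says how rows were matched between species. Reads are split by RSEM among similar copies, so such genes are uncertain. Sample codes tied the 24 columns to 8 samples, with 0 columns left unused. Of 29566 rows, 8 with 4 repeated IDs were left out. Long-read data from mixed organs were not analysed here.

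Values were used as log2(TPM + 1) for genes averaging 1 TPM or more in the libraries fitted, so changes of low genes are understated. Models were fitted with limma 3.58.1 (R 4.3.3, two-sided, variance trend), with p-values adjusted over all genes tested by the Benjamini-Hochberg method at 0.05. They covered the 12 low CO2 libraries, the 6 libraries of each species, and all 24, and were tested on simulated data. Alternatives covered the pseudocount, the minimum, scaling, the trend, weights, a replicate block and each library left out. Named genes were the 2 most abundant, the 2 with the largest and the 2 with the smallest excess at low CO2, the 2 highest and 2 lowest by the mean low CO2 change of the intermediates (called in F. sonorensis, same sign in F. ramosissima), and the 2 with the smallest p for a difference between them. The members and lists were chosen with earlier results of these data known. As TPM keeps no depth, the error of a value is the library spread.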

Additional observations from a re-analysis of the deposited data

Results flagged for a closer look

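The low CO2 change differed between F. ramosissima and F. sonorensis in 4 of the 160 genes by the test of that difference, and between the mean of both intermediates and the mean of F. robusta and F. trinervia in 6. With both directions together, neither count is above the share of all genes. The first holds 1 higher gene (all genes tested: 2.68%) and 3 lower (2.41%), and the second 2 higher (2.25%) and 4 lower (1.98%). Among the named genes, the change of F. ramosissima minus that of F. sonorensis was -2.58 (log2) for Gene03470 and -1.14 for Gene08103. Over the alternatives the limma adjusted p lay between 0.000171 and 0.0425 for Gene03470 and between 0.00135 and 0.0429 for Gene08103, and the sign held in each. With at least 1 TPM in each species Gene03470 was not tested, so it has 32 alternatives and Gene08103 has 33. The part of the F. ramosissima control libraries, whose spread was the largest, was not tested beyond leaving each of them out.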

How the results depend on the processing

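The number of the 160 genes that passed all 4 contrasts at low CO2 stayed within 1.5 times of 114 under every alternative run (84 to 117). The size of the list itself did not. It was 92 after median-ratio scaling, 82 after quantile normalization, 350 with a ratio of 1.5, 54 with a ratio of 3 and 305 with no minimum in F. robusta and F. trinervia, and leaving out 1 control library gave 135 to 187. For the change within species, median-ratio scaling gave 33 higher genes in F. sonorensis, and array weights gave 1 lower gene in F. ramosissima, 49 higher in F. robusta, while F. trinervia had 28 higher and 21 lower. Leaving out 1 library gave 10 to 20 higher genes in F. sonorensis, 0 to 1 lower in F. ramosissima, 20 to 32 higher in F. robusta, while F. trinervia had 5 to 16 higher and 4 to 10 lower. For the difference between F. ramosissima and F. sonorensis, the higher genes numbered 0 with a pseudocount of 0.1, 2 with one of 5 and after quantile normalization, and 0 with at least 1 TPM in each species. The lower ones numbered 5 with a pseudocount of 5 and after median-ratio scaling, 6 after quantile normalization and 1 with at least 1 TPM in each species. Leaving out 1 library gave 0 to 2 higher and 2 to 11 lower. For both intermediates against the others, 1 was higher with at least 1 TPM in each species, 10 were lower after quantile normalization, 7 were higher and 17 lower with array weights, and leaving out 1 library gave 0 to 5 higher and 3 to 11 lower. The cause of these shifts was not tested.

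Most libraries of the same number did not deviate together across CO2 levels (r between -0.29 and 0.30, over 0.1 in 3 of 12 pairs). In F. trinervia r was 0.24 for library 1, 0.30 for library 2 and -0.03 for library 3. Libraries of different number reached 0.28 (F. ramosissima low CO2 library 3 and control library 2). With 3 libraries per sample, these values cannot decide whether the numbers pair the libraries. A replicate block by library number gave 115 genes that passed at low CO2, 16 lower genes in F. trinervia, and 0 higher in F. ramosissima against F. sonorensis, and the other counts stayed within 1.5 times. Several limma calls of named genes changed under an alternative, and the losses are given beside those genes. The lowest contrast at low CO2 of Gene33297 passed with adjusted p = 0.0365 after quantile normalization, 0.0111 with array weights and 0.0387 with the block, that of Gene13010 passed with 0.0247 and 0.0253 under array weights and the block, and the change of Gene00289 in F. trinervia passed with array weights (adjusted p = 0.0172). The change of Gene13010 in F. trinervia, which was not called, lay between -1.32 and 0.04 on leaving out 1 library, and turned to 0.0387 without control library 1.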
